A study of Mus musculus with 24 samples.

Results

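The effect of mutant PIK3CA on luminal Sca1-negative cells of the mouse mammary gland was read from 6 of the 24 arrays of the study, 3 mutant and 3 control, chosen by their labels alone. All 19937 genes with a probe set of a single gene symbol were compared. Mutant mice carried Lgr5-creERT2, which makes Cre recombinase from the Lgr5 promoter and needs tamoxifen to act, together with a PIK3CA H1047R transgene, and control mice carried Lgr5-creERT2 without it. Both were of mixed FVB/C57BL6 background and were studied 4 weeks after tamoxifen, when the labels describe the mutant gland as preneoplastic. Glands of 2 to 3 estrus-synchronised mice per genotype were pooled, in 3 independent sortings, and the age of the mice is not given in the sources used here. The cells were CD45-negative, CD24-high and Sca1-negative, and RNA of 250 sorted cells was amplified for each array. Mutant cells were also gated as GFP-positive, which the labels equate with expression of Lgr5, of the transgene or of both, whereas control cells were GFP-negative. Genotype and GFP state therefore cannot be told apart in this comparison. A further 18 arrays held the Sca1-positive luminal gate and the basal gates, and serve here as references.

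PIK3CA encodes the catalytic subunit of phosphoinositide 3-kinase, which turns growth factor signals into AKT and mTOR activity, and the H1047R change in its kinase domain leaves it overactive. Luminal cells with little Sca1 include the progenitors of the milk-producing alveoli, marked by Elf5 and Kit, whereas Sca1-positive luminal cells are enriched for cells that sense estrogen and progesterone. Basal cells, the other mammary layer, carry keratins 5 and 14 and contract to eject milk.

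The expression values are on a log2 scale, so a difference of 1 is 2-fold. Luminal markers (Krt8, Krt18, Krt19, Epcam and Cd24a) averaged 11.57 to 11.67 in the mutant and 11.6 to 11.69 in the control arrays. The 4 progenitor markers (Kit, Elf5, Aldh1a3 and Cd14) averaged 9.34 to 9.88 in the mutant arrays, 8.82 to 9.62 in the control arrays and 5.55 to 5.88 in control Sca1-positive cells. The measured markers therefore go with the labelled gate in both genotypes, although Ly6a, which encodes Sca1, could not be read from a probe set of its own. All 8 leukocyte, 4 endothelial and 3 pericyte markers had group means below 4.6, the median of all gene values, in both genotypes. So did 2 of 5 fibroblast markers, whose array means were 4.62 to 5.01 in mutant and 5.49 to 5.58 in control arrays, and 2 of 3 adipocyte markers in the mutant and 1 of 3 in the control group. Sox10, the 1 measured Schwann cell marker, stood at 6.99, 7.51 and 6.72 in mutant and 6.7, 6.21 and 6.55 in control arrays (0.59, adjusted p = 0.38). Correlations across genes were 0.974 to 0.978 between mutant arrays, 0.959 to 0.966 between control arrays and 0.954 to 0.965 between genotypes.

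In mutant cells 111 genes were higher and 34 were lower, which is 0.557% and 0.171% of the genes tested (adjusted p under 0.05 in a limma fit of all 24 arrays). The median difference over all genes was -0.04. Of the 111 higher genes 89 differed by at least 2-fold and 44 by at least 4-fold, and of the 34 lower genes 26 and 9. In every one of the 145 genes the 3 arrays of one genotype lay apart from the 3 of the other, an arrangement found upward in 1524 (7.64%) and downward in 2089 (10.5%) of all genes. These shares, and the shares called, are the reference for all counts of list members below. The control mean of 28 of the 111 higher genes lay below the median of all gene values, so that their change on the array is compressed, as is that of 15 of the 34 lower genes with a mutant mean below it. The fit borrows its estimate of spread from all 8 groups. Fitted on the 6 arrays alone, 22 of the 111 and 2 of the 34 calls were kept. When 1 of the 6 arrays was left out at a time, 57 of the 111 and 12 of the 34 were kept each time. A gene named below kept its call without any 1 array unless the text says otherwise. These arrays are bulk samples, in which a change in the share of a cell type and a change in RNA per cell cannot be told apart.

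**Figure D1:**
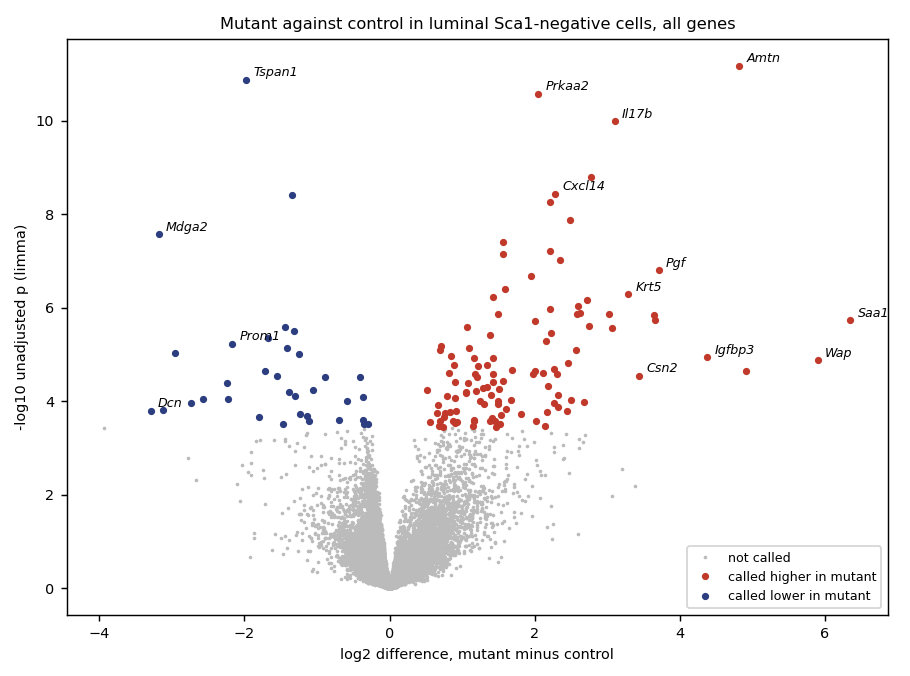
Log2 difference of mutant minus control luminal Sca1-negative cells (x axis) against the -log10 unadjusted p of limma (y axis) for all 19937 genes, each a point. The 111 genes called higher (red) reach a difference of 6.35 at Saa1, and the 34 called lower (blue) reach -3.29 at Dcn.

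Pik3ca itself was read first. Its mouse probe set stood at 7.83, 8.02 and 7.86 in mutant arrays 1 to 3 and at 7.18, 7.02 and 6.8 in the control arrays. The groups did not overlap, but the difference of 0.90 ± 0.21 (standard error of the fit) missed the threshold (adjusted p = 0.0593). It passed with dim genes left out (0.0457), with array weights (0.0427) and in the 12 luminal arrays alone (0.0321). Whether this probe set also reads the transgene is not stated in the sources used here. Lgr5, whose promoter drives the recombinase, stood at 4.75, 5.17 and 5.25 in the mutant and at 4.53, 4.56 and 4.25 in the control arrays, near the median of all gene values in both (difference 0.61, adjusted p = 0.618), against a mean of 8.07 in control basal GFP-negative cells.

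Among the genes of the pathway itself 1 was called. None of 16 PI3K subunits, none of 10 measured pathway phosphatases and none of 27 FOXO factors and targets passed, with median differences of 0.03, -0.01 and -0.01. Of 26 measured AKT, SGK and mTOR genes 1 rose and none fell (median 0.18), against 0.557% higher and 0.171% lower of all genes. In 7 of the 26 the mutant arrays lay wholly above control and in none wholly below, against 7.64% and 10.5% of all genes. That 1 gene was Grb10, an adaptor that mTOR phosphorylates and that dampens insulin receptor signalling. It stood at 6.85, 7.36 and 6.99 in mutant arrays and 4.76, 5.62 and 4.96 in control arrays, with no overlap and a difference of 1.95 ± 0.24 (adjusted p = 0.000262). The call was lost in the 6 arrays alone (adjusted p = 0.0825).

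Prkaa2, the alpha-2 catalytic subunit of the energy sensor AMPK, rose with little spread between arrays. Its mutant arrays stood at 6.27, 6.78 and 6.51 and its control arrays at 4.65, 4.46 and 4.31. The control values lie near the median of all gene values, and every mutant array lay well above them. The difference was 2.05 ± 0.14, or 4.13-fold (adjusted p = 1.77e-07), and passed in the 6 arrays alone (0.0281). In control basal GFP-negative cells Prkaa2 stood at a mean of 4.49 and in control Sca1-positive cells at 4.22.

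The serum amyloid A genes Saa1 and Saa2 rose, Saa1 by more than any other gene. They encode secreted acute-phase proteins that epithelia also make in response to inflammatory cytokines. Their promoters (RefSeq, GRCm38.p6) are shown because these genes are recent copies of each other. The 250 bases before the start of Saa1 (chr7:46742981-46743230, minus strand) and of Saa2 (chr7:46751583-46751832, plus strand) shared 238 of 251 aligned positions (94.8%). Whether the array tells Saa1 from Saa2 transcripts was not tested, so the values of these genes may not be independent.
Saa1: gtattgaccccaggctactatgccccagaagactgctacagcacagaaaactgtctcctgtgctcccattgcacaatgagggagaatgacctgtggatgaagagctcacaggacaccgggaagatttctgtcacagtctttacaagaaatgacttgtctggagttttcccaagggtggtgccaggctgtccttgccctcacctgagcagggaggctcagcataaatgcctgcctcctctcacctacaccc
Saa2: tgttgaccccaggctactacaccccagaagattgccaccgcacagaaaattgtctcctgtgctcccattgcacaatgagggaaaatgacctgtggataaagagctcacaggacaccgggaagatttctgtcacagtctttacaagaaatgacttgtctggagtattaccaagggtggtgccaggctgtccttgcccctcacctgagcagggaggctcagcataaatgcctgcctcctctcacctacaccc
Saa1 stood at 10.72, 10.45 and 9.28 in mutant arrays and at 3.57, 4.47 and 3.37 in control arrays. Every control array lay below the median of all gene values and every mutant array lay above 9. The difference was 6.35 ± 0.91, an 81.5-fold change (adjusted p = 0.00127), which passed in the 6 arrays alone (0.0248) but not in the 12 luminal arrays (0.054). Saa2 stood at 9.85, 9.51 and 8.45 against 3.84, 5.31 and 3.93. Control array 2 was the highest control in both genes and mutant array 3 the lowest mutant. Saa2 differed by 4.91 ± 0.86 (adjusted p = 0.00749), and its call was lost in the 6 arrays alone (0.0531) and in the luminal arrays (0.0784).

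Of 29 measured acute-phase and antimicrobial genes 5 rose and none fell, against 0.557% higher and 0.171% lower of all genes. The median difference of the 29 was 0.26. In 10 of them the mutant arrays lay wholly above the control arrays, against 7.64% of all genes. Besides the serum amyloids the called genes were Wfdc12, a whey-acidic-protein domain inhibitor of proteases, Slpi, the secretory leukocyte protease inhibitor, and Il1rn, the antagonist of the interleukin-1 receptor. Wfdc12 stood at 6.44, 6.26 and 6.6 in mutant and 4.04, 3.92 and 4.3 in control arrays. Its groups were tight and far apart, and its difference of 2.35 ± 0.27 (adjusted p = 0.000135) passed in the 6 arrays alone (0.0159). Slpi rose from an already high level, from 10.15, 9.98 and 10.22 to 11.15, 11.82 and 11.68, a difference of 1.43 (adjusted p = 0.000621). Il1rn rose by 0.85 (0.00454) from a level near the median of all gene values. Slpi and Il1rn lost their calls in the 6 arrays alone (0.0825 and 0.194). Lcn2, the iron-binding lipocalin, was already at 12.46, 12.48 and 12.39 in control arrays and stood at 12.72, 12.71 and 12.68 in mutant arrays (0.26, adjusted p = 0.779). Saa3 (2.23, adjusted p = 0.0593), Hp (1.34, 0.272) and Lbp (1.02, 0.461) did not pass.

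Some other immune genes rose. Il17b, an interleukin-17 family cytokine, stood at 8.79, 8.16 and 9.11 in mutant arrays and at 5.75, 5.31 and 5.72 in control arrays. The lowest mutant array lay far above the highest control array, and the difference was 3.10 ± 0.23 (adjusted p = 5.09e-07; 0.0345 in the 6 arrays alone). Il1rap, the shared signalling chain of the interleukin-1 receptor family, rose by 2.31 (0.00784) and Pglyrp1, a peptidoglycan recognition protein, by 2.57 (0.00355), and neither passed in the 6 arrays alone (0.279 and 0.0887). Among a list of 33 measured interleukins, TNF family genes and receptors, which does not hold Il1rap, the calls were Il1rn and Il17b, and the median difference was -0.01. Among 30 chemokines and receptors, Cxcl14 rose and Cxcl17 fell. Cxcl14, a chemokine of basal epithelium, stood at 7.77, 7.21 and 7.62 against 5.3, 5.35 and 5.1, without overlap, a difference of 2.28 ± 0.21 (adjusted p = 1.13e-05; 0.0248 in the 6 arrays alone). Cxcl17, a mucosal chemokine, fell by 1.23 (0.0313), a call lost without control array 1 or 3 or mutant array 1 or 3 (adjusted p up to 0.172). The whey-acidic-protein domain gene Wfdc3 rose by 2.78 ± 0.25 (adjusted p = 6.2e-06; 0.0471 in the 6 arrays alone), and by 1.31 when its probe sets were averaged. None of 24 complement genes, 20 NF-kappaB genes, 22 JAK, STAT and SOCS genes or 18 interferon response genes was called. The interferon list does not hold every interferon-inducible gene. Among those outside it, Iigp1 fell (-1.71, adjusted p = 0.00749) and Ifi30 rose (1.69, 0.0074). In 5 of the 20 NF-kappaB genes (median 0.08) the mutant arrays nevertheless lay wholly above control, against 7.64% of all genes, and in none wholly below.

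Milk protein genes formed the second group of large rises. Wap encodes whey acidic protein and Csn2 beta-casein, both made by alveolar cells under prolactin and STAT5. Wap stood at 11.88, 11.03 and 10.75 in mutant arrays and at 4.8, 6.72 and 4.45 in control arrays. Control array 2 was the highest control, as for the serum amyloids, yet lay far below every mutant array. The difference was 5.90 ± 0.99, or 59.6-fold (adjusted p = 0.0051), and was lost in the 6 arrays alone (0.0564) and in the luminal arrays (0.0698). Csn2 was bright in both genotypes, at 12.65, 12.46 and 12.4 against 8.8, 8.96 and 9.46. Mutant arrays came close to the top of the scale, and the difference of 3.44 ± 0.62 (adjusted p = 0.00816) passed in the 6 arrays alone (0.0125). The 250 bases before the start of Csn2 (chr5:87699426-87699675, minus strand, GRCm38.p6, RefSeq) held 1 match to the STAT site TTCNNNGAA, whose first base lies at -93 relative to the start and which is given in capitals.
Csn2: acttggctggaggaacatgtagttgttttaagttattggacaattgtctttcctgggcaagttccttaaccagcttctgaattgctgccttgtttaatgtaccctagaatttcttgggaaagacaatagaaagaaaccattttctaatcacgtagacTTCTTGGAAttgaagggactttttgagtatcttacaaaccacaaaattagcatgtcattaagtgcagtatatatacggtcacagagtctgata
The windows of Wap, Saa1 and Saa2 held no match. Such a match, searched on both strands, was found in 7.02% of 32851 promoters and in 6 of the 86 promoters matched to genes called higher (6.98%).

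Of 26 measured milk genes 3 rose and none fell, against 0.557% higher and 0.171% lower of all genes. Positive differences were found in 22 of the 26, against 8193 of all 19937 genes, and the median was 0.61. The third was Lao1, an L-amino-acid oxidase of milk, at 8.31, 6.65 and 7.48 against 5.03, 4.95 and 4.61. Its mutant arrays varied more than its control arrays but did not overlap them, and its difference was 2.62 ± 0.37 (adjusted p = 0.00106; 0.125 in the 6 arrays alone). Csn1s1, an alpha-casein, stood at 11.91, 11.57 and 11.6 against 9.49, 9.59 and 10.55 (1.82, adjusted p = 0.287). Csn1s2a, another, stood at 11.83, 10.55 and 10.73 against 7.01, 7.53 and 8.43 (3.38, adjusted p = 0.226). In both genes the groups were apart, but the spread between pools over all groups was large. Csn3, kappa-casein, was at 11.07, 11 and 11.14 against 10.81, 11.03 and 11.07 (0.10, adjusted p = 0.972). The lipid droplet gene Plin2 (1.58, 0.217) and the milk lipase Cel (2.41, 0.108) did not pass either.

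**Figure D2:**
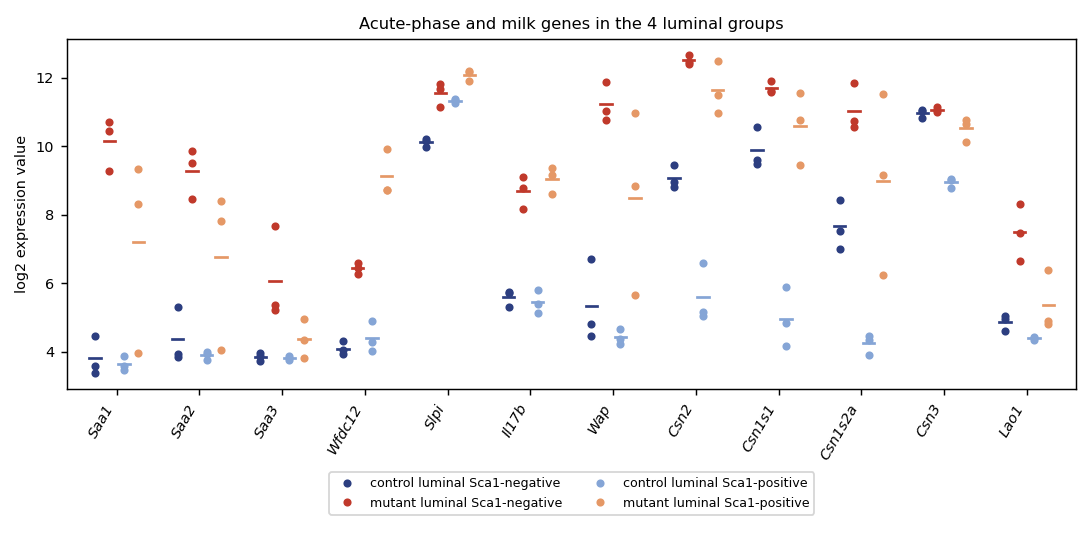
Log2 expression values of acute-phase, immune and milk genes in the 4 luminal groups, 3 arrays each (points) with the group mean (bar). Saa1 and Wap are low in all 3 control Sca1-negative arrays and above 9 in all 3 mutant arrays, and vary widely among the mutant Sca1-positive arrays.

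Some luminal progenitor and alveolar genes rose, but none of the 4 progenitor markers was called. Of 22 measured luminal progenitor and alveolar genes 3 rose and none fell (median 0.29), against 0.557% higher and 0.171% lower of all genes. The mutant arrays lay wholly above control in 10 and wholly below in 3, against 7.64% and 10.5% of all genes. The called genes were Wap, Kcnn4, a calcium-activated potassium channel, and Itgb3, the integrin beta-3 subunit that marks luminal progenitors. Wap was also counted among the milk genes above. Kcnn4 stood at 8.49, 9.28 and 8.39 against 7.02, 7.12 and 6.03, a difference of 2.00 ± 0.29 (adjusted p = 0.0013; 0.189 in the 6 arrays alone). Itgb3 rose by 1.15 (0.0469), a call lost without any 1 of the 6 arrays (0.0659 to 0.218). Elf5, the alveolar transcription factor, stood at 9.8, 8.64 and 8.94 against 8.84, 7.82 and 7.37, and Kit, the stem cell factor receptor, at 8.51, 7.34 and 8.27 against 9.66, 8.71 and 8.93. The groups of Elf5 overlapped and those of Kit did not, and neither passed (1.12, adjusted p = 0.645, and -1.06, 0.264). Cxcl15 had the lowest difference of all genes, at 3.58, 3.45 and 8.59 against 9.02, 8.64 and 9.75. Mutant array 3 reached nearly the control level while the other mutant arrays were at the bottom of the scale (-3.93, adjusted p = 0.0511).

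Some genes of the basal layer rose. Of 14 measured basal keratins and basal transcription factors 3 rose and none fell (median 0.55). Their differences were positive in 9 and negative in 5, down to -1.4. In 6 of the 14 the mutant arrays lay wholly above control and in 2 wholly below, against 7.64% and 10.5% of all genes. None of 17 measured contractile genes passed (median 0.27). Of all genes 0.557% were called higher. Over these 17, array means were 6.22 to 6.42 in mutant and 5.88 to 5.98 in control arrays. In 3 of the 17 the mutant arrays lay wholly above control and in 1 wholly below, against 7.64% and 10.5% of all genes. The difference between these lists was not tested. Krt5 stood at 8.63, 7.92 and 8.94 against 4.93, 5.24 and 5.47. Every mutant array lay above every control array and below the control basal GFP-negative mean of 11.67, and the difference was 3.29 ± 0.43 (adjusted p = 0.000572; 0.0345 in the 6 arrays alone). Krt14 stood at 8.69, 9.0 and 9.18 against 6.83, 6.12 and 6.55 (2.46 ± 0.42, adjusted p = 0.00571). Krt17 stood at 6.99, 7.11 and 6.71 against 5.09, 5.02 and 4.25 (2.15 ± 0.33, adjusted p = 0.00266). The keratin groups lay apart, with Krt14 passing in the 6 arrays alone (0.0358) and Krt17 not (0.0651), and none of the 3 passed in the 12 luminal arrays (0.0528, 0.128 and 0.0907).

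Among the basal genes that were not called, Trp63, the basal lineage factor p63, stood at 5.97, 6.52 and 6.91 against 5.61, 5.27 and 5.24 (1.09, adjusted p = 0.279). Acta2, smooth muscle actin, stood at 7.5, 6.96 and 8.34 against 5.37, 5.77 and 5.4 (2.09, adjusted p = 0.171). Both were higher in every mutant array, with mutant array 3 the highest. Myh11, smooth muscle myosin (0.40, 0.573), Cnn1, calponin (0.70, 0.709), and Oxtr, the oxytocin receptor (0.23, 0.851), overlapped between genotypes and had control basal means of 11.77, 11.81 and 9.99. Over the 9 basal markers, array means were 6.42 to 7.01 in mutant, 5.24 to 5.39 in control and 10.75 to 11 in control basal GFP-negative arrays. In 5 of the 9, the keratins, Trp63 and Acta2, the mutant arrays lay wholly above control. In 1, Mylk, they lay wholly below. These arrangements were found in 7.64% and 10.5% of all genes. Whether basal cells within the mutant gate had a part in these rises was not tested.

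**Figure D3:**
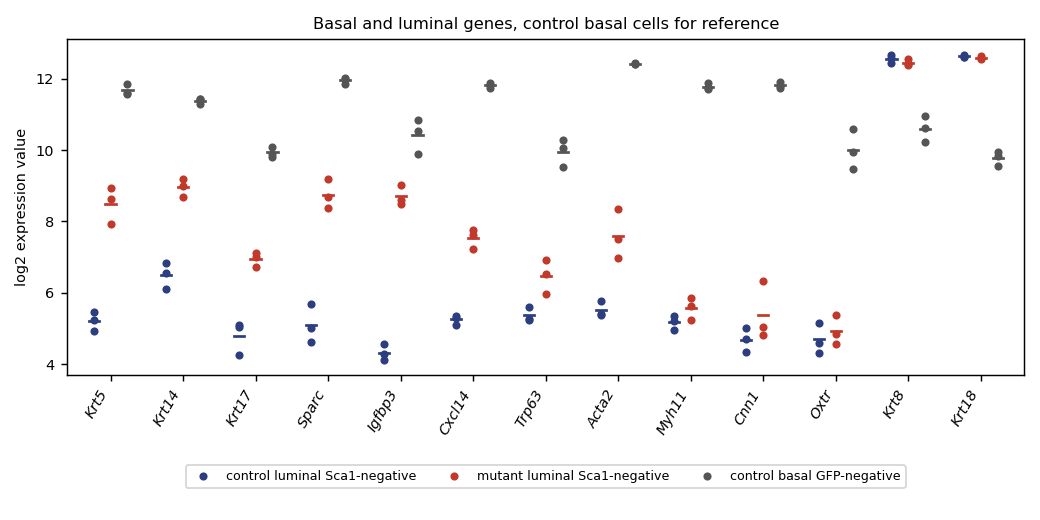
Log2 expression values of basal, contractile and luminal genes in control and mutant luminal Sca1-negative cells and, for reference, in control basal GFP-negative cells, 3 arrays each (points) with the group mean (bar). Mutant arrays of Krt5, Krt14, Krt17, Sparc and Igfbp3 lie between the other groups, while those of Myh11 and Oxtr overlap the control luminal arrays.

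Secreted matrix and growth factor genes were among the largest rises. Amtn encodes amelotin, a matrix protein best known from enamel, and was the most firmly changed gene. It stood at 10.08, 10.18 and 10.6 in mutant arrays and at 5.85, 4.7 and 5.86 in control arrays. The mutant arrays agree closely and lie far above the controls, giving a difference of 4.82 ± 0.30, or 28.2-fold (adjusted p = 1.32e-07; 0.0248 in the 6 arrays alone). Its mean in control basal GFP-negative cells was 3.73, below both luminal groups. Sparc, a collagen-binding matricellular protein, stood at 8.67, 8.36 and 9.19 against 5.02, 5.68 and 4.62. The groups were apart by a wide margin, with a difference of 3.64 ± 0.51 (adjusted p = 0.00106; 0.0379 in the 6 arrays alone and 0.0704 in the luminal arrays). The proteoglycan Bgn rose by 1.56 (0.00995), a call lost without control array 1 or 2 or mutant array 3 (0.0505, 0.0504 and 0.0562), while the proteoglycan Dcn fell. Amtn, Sparc and Bgn were the 3 higher and Dcn the 1 lower gene of 30 matricellular genes (median 0.01), and none of 30 collagens or 28 metalloproteinases and inhibitors was called. Of 25 integrins and laminins 3 rose: Itgb3, Lama4, a laminin of vessel and peripheral basement membranes (1.39, adjusted p = 0.00207), and Itgav, the integrin alpha-v subunit (0.82, 0.0078). Itgav and Lama4 lost their calls in the 6 arrays alone (0.175 and 0.223).

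Igfbp3, the main carrier of insulin-like growth factors, stood at 8.6, 8.48 and 9.02 in mutant arrays and at 4.12, 4.29 and 4.56 in control arrays. The control arrays were all below the median of all gene values, and the mutant arrays agreed closely. The difference was 4.38 ± 0.73, or 20.8-fold (adjusted p = 0.00469; 0.00673 in the 6 arrays alone, but 0.105 in the 12 luminal arrays), and it was the 1 call among 17 genes of the IGF and insulin axis (median -0.06). Pgf, a ligand of the VEGF receptor Flt1, stood at 8.07, 8.04 and 8.93 against 4.62, 4.58 and 4.72. Its control arrays sat together near the median of all gene values and its mutant arrays lay above the control basal mean of 7.26. Its difference was 3.71 ± 0.45 (adjusted p = 0.000211; 0.0248 in the 6 arrays alone). Nrg1, neuregulin, the ligand of ERBB3 and ERBB4, stood at 7.76, 7.08 and 8.72 against 4.77, 5.27 and 5.26, also with no overlap. It rose by 2.75 ± 0.40 (adjusted p = 0.00154; 0.118 in the 6 arrays alone) and was the 1 call among 16 ERBB ligands and receptors (median -0.04). Its receptor gene Erbb3 stood lower in every mutant array (-0.68, adjusted p = 0.19). Ecrg4, a secreted peptide precursor lost in several tumours, rose by 3.66 ± 0.52 (adjusted p = 0.00127), from 6.37, 5.85 and 5.15 to 8.89, 9.36 and 10.1, and lost its call in the 6 arrays alone (0.0632).

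**Figure D4:**
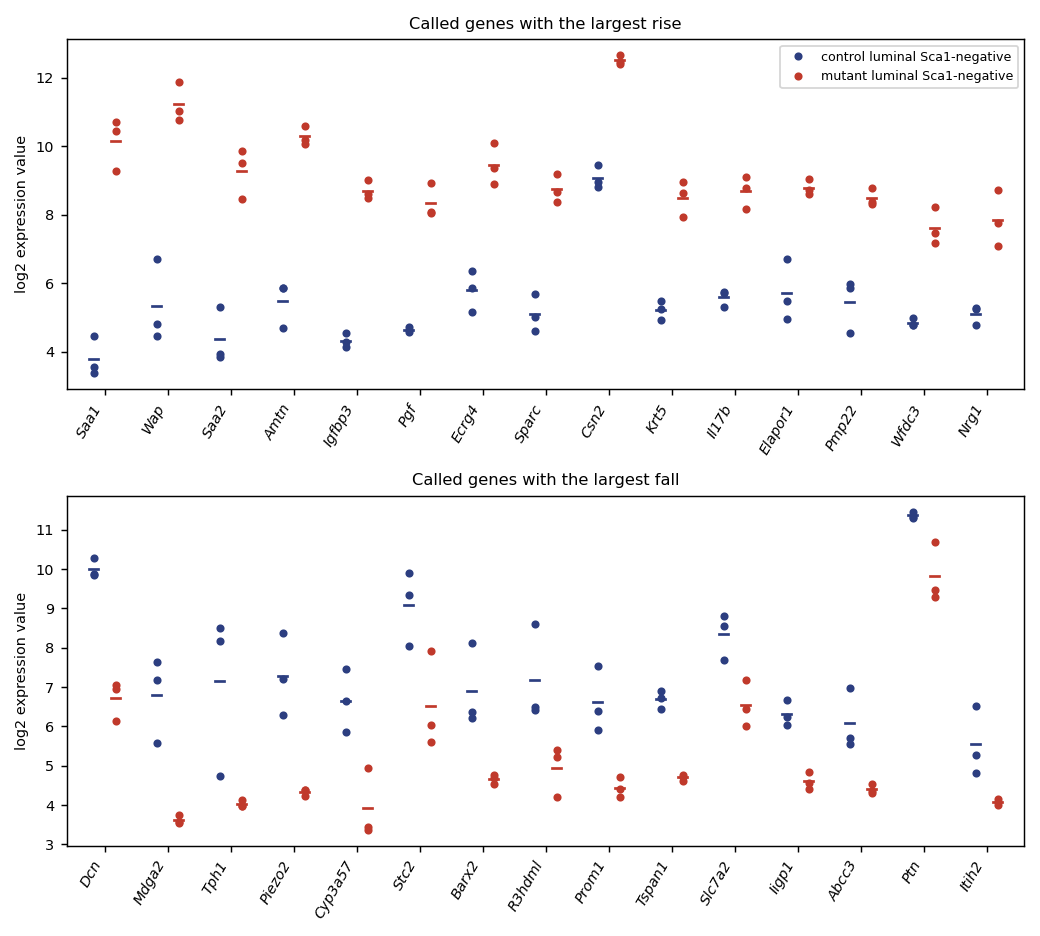
Log2 expression values in control (blue) and mutant (red) luminal Sca1-negative arrays, 3 each (points) with the group mean (bar), for the 15 called genes with the largest rise (top) and the 15 with the largest fall (bottom). In none of these genes do the 3 arrays of one genotype overlap the 3 of the other.

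Some metabolic genes rose. Elovl5, which elongates polyunsaturated fatty acids, stood at 10.34, 9.4 and 10.17 against 8.13, 7.97 and 7.19 and was the 1 call among 26 measured sterol and fatty acid synthesis genes (median 0.27). It rose by 2.21 ± 0.25 (adjusted p = 0.000103; 0.123 in the 6 arrays alone). Msmo1, a sterol methyl oxidase outside that list, rose by 2.32 (0.0247), a call that was lost without any 1 array (0.0501 to 0.0877). Of 24 glucose uptake and glycolysis genes 2 rose and none fell (median 0.18). Ldha, lactate dehydrogenase A, stood at 9.79, 9.48 and 9.58 against 8.35, 8.1 and 8.51 (1.30, adjusted p = 0.022), and Aldoa, aldolase A, rose by 0.76 (0.0304). The groups of Ldha were apart, but its call was lost without control array 1 or 2 or mutant array 1 or 3 (adjusted p up to 0.113), and that of Aldoa without control array 1 or 2 or mutant array 1 or 2 (up to 0.143). Ckmt1, a mitochondrial creatine kinase, rose by 2.11 (0.0078), and Nqo1, a quinone reductase, by 1.5 (0.00106), and both missed the threshold in the 6 arrays alone (0.0564 and 0.0825). Of 20 hypoxia genes Ldha and Car12, a carbonic anhydrase, were called. Car12 rose by 1.39 (0.0401), a call lost without control array 1, 2 or 3 or mutant array 1 or 3 (up to 0.159). None of 33 cell cycle genes was called, and in none of them were the groups apart in either direction (median 0.14). Nor was any of 21 luminal keratin and junction genes, 35 Wnt genes, 22 Notch genes or 9 class I antigen presentation genes, with medians of -0.04, -0.06, -0.08 and 0.04.

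Further single rises were of membrane and signalling genes. Pmp22, a myelin and epithelial junction protein, stood at 8.36, 8.79 and 8.31 against 5.97, 4.55 and 5.85, rising by 3.03 ± 0.43 (adjusted p = 0.00106; 0.0832 in the 6 arrays alone). Elapor1, an endosome-lysosome protein raised by estrogen, stood at 8.71, 9.03 and 8.6 against 6.72, 4.97 and 5.47, rising by 3.06 ± 0.45 (adjusted p = 0.00155; 0.107 in the 6 arrays alone). In both genes control array 2 was the lowest, and the groups did not overlap. Gja1, the gap junction protein connexin 43, rose by 2.21 (0.000964) and Apod, the lipid carrier apolipoprotein D, by 2.23 (0.00189). Apod passed in the 6 arrays alone (0.0379) and Gja1 just missed (0.0518). The intermediate filament gene Vim rose by 1.61 (0.0269), a call lost without control array 1, 2 or 3 or mutant array 1 or 3 (0.0514 to 0.128). With Sparc it gave 2 calls among 16 mesenchymal transition genes, in which Snai1, Twist1 and Zeb1 differed by -0.02, 0.0 and 0.04. Id1 and Id2, inhibitors of differentiation induced by BMP signals, rose by 1.08 (0.0104) and 1.47 (0.0484). They were the 2 calls among 35 TGF-beta and BMP genes. Id1 lost its call without control array 2 (0.0502) or mutant array 1 (0.0576), and Id2 without control array 1 or 2 or mutant array 1, 2 or 3 (up to 0.191). Cd68, a lysosomal protein abundant in macrophages, rose by 1.52 (0.0431), the 1 call among 22 leukocyte genes, and was lost without any 1 array (0.0685 to 0.136). Ptprc, the CD45 gene used to exclude leukocytes, stood at 4.06, 4.14 and 3.97 against 4.25, 4.21 and 4.47. Nr4a1 rose by 1.06 (0.0148) as the 1 call among 22 immediate early genes and lost it without control array 2 or 3 or mutant array 1 or 3 (up to 0.078).

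Genes of hormone-sensing luminal cells were among those that fell. Of 19 measured genes of that list 4 fell and none rose, against 0.171% lower and 0.557% higher of all genes. The median of the list was -0.63, and 16 differences were negative, against 11744 of all 19937 genes. The control arrays lay wholly above the mutant arrays in 8, against 10.5% of all genes. Prom1, prominin-1, a surface marker of this cell type, stood at 4.21, 4.41 and 4.7 in mutant arrays and at 5.91, 6.39 and 7.53 in control arrays. No mutant array came near the lowest control, and the difference was -2.17 ± 0.34 (adjusted p = 0.00296; 0.194 in the 6 arrays alone). Tph1, which makes serotonin, stood at 3.98, 4.12 and 3.98 against 8.18, 4.73 and 8.51, so that control array 2 was much nearer the mutant than the other controls. Its difference of -3.12 (0.0282) lost its call without any array except control array 2 (adjusted p up to 0.129). Ptn, the growth factor pleiotrophin, stood at 9.3, 9.47 and 10.69 against 11.34, 11.3 and 11.46 (-1.55, adjusted p = 0.00816; 0.0559 without mutant array 1). Cxcl17 was the fourth. Pgr, the progesterone receptor, stood at 4.58, 5.28 and 6.89 against 7.49, 7.43 and 7.92. Mutant array 3 lay well above the other mutant arrays, and Pgr passed only when it was left out (-2.68, adjusted p = 0.0314, against -2.03, 0.132). Esr1, the estrogen receptor, stood at 4.84, 5.01 and 5.35 against 6.37, 5.13 and 5.68, with overlap (-0.66, 0.43), and Foxa1, its pioneer factor, at 6.7, 7.6 and 8.53 against 7.64, 6.38 and 8.75 (0.02, 0.996). The 4 measured hormone-sensing markers (Esr1, Pgr, Foxa1 and Prom1) averaged 5.08 to 6.37 in mutant, 6.33 to 7.47 in control and 8.47 to 9.13 in control Sca1-positive arrays. Whether a difference in the share of hormone-sensing cells within the gate had a part in these falls was not tested.

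Outside that list, Tspan1, a tetraspanin of epithelial surfaces, fell most firmly. It stood at 4.62, 4.71 and 4.78 in mutant arrays and at 6.73, 6.9 and 6.43 in control arrays. Both groups were tight, and the difference of -1.98 ± 0.13, 3.95-fold (adjusted p = 1.35e-07), passed in the 6 arrays alone (0.0248). Mdga2, a synaptic adhesion protein, stood at 3.56, 3.75 and 3.54 against 7.63, 5.59 and 7.18. Mutant arrays were at the bottom of the scale, and the difference was -3.18 ± 0.34 (adjusted p = 5.3e-05), -2.01 with its probe sets averaged, and lost its call in the 6 arrays alone (0.139). Piezo2, a mechanically gated channel, stood at 4.39, 4.24 and 4.38 against 7.22, 6.28 and 8.37, also without overlap (-2.95 ± 0.48, adjusted p = 0.00406; 0.157 in the 6 arrays alone). Dcn, decorin, a proteoglycan also used as a fibroblast marker, stood at 6.96, 7.05 and 6.13 against 9.88, 10.27 and 9.85. Its groups were far apart and it passed in the 6 arrays alone (0.0345), but the call (-3.29 ± 0.69, adjusted p = 0.0284) was lost without any 1 array (0.0539 to 0.124). It was the 1 call among 13 fibroblast genes. Its control Sca1-positive mean was 11.53, and Col1a1, Col1a2 and Lum, other defining fibroblast genes, differed by -0.16, -0.14 and -0.06 and overlapped between genotypes. Barx2, a homeobox factor, stood at 4.53, 4.75 and 4.68 against 6.35, 6.21 and 8.13, a clear separation (-2.24 ± 0.41, adjusted p = 0.0104; 0.255 in the 6 arrays alone). The bile salt and drug exporter Abcc3 fell by 1.68 (0.00229), the interferon-inducible GTPase Iigp1 by 1.71 (0.00749) and Galnt15, a mucin-type glycosyltransferase, by 1.35 (1.13e-05). Their calls were lost in the 6 arrays alone (0.25, 0.0632 and 0.0651). Stc2 (-2.57, 0.0188), Cyp3a57 (-2.73, 0.0206) and Slc7a2 (-1.80, 0.036) each lost the call without control array 1 or 3 or mutant array 1 or 2 (up to 0.119, 0.114 and 0.137). R3hdml (-2.23, 0.0188) lost it without mutant array 1 (0.119), and Itih2 (-1.47, 0.0431) without control array 2 or 3 or mutant array 1, 2 or 3 (up to 0.134).

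The called genes were set against the difference between control basal GFP-negative and control luminal Sca1-positive cells, read from 6 other arrays. These arrays entered the comparison through the shared estimate of spread, so the calls are not independent. The shares that follow, for higher and for lower genes, may be larger for it. Of the 111 higher genes 33 (29.7%) were higher in control basal cells and 10 (9.01%) higher in control Sca1-positive cells, against 5.77% and 7.35% of all genes. The median basal minus Sca1-positive difference was 0.18 for the higher genes and 0.03 for all genes. The 33 basal-high genes included Krt5, Krt14, Krt17, Sparc, Igfbp3, Ecrg4, Cxcl14, Il17b, Pmp22, Pgf, Nrg1 and Gja1. In 23 of the 33 the control basal mean exceeded the mutant luminal mean, and their median levels were 5.46 in control, 8.16 in mutant and 9.93 in control basal cells. In the other 10, among them Pgf and Nrg1, the mutant luminal mean reached or passed the basal one. A further 68 higher genes, among them Saa1, Saa2, Wap, Csn2, Amtn, Prkaa2, Lao1 and Grb10, were called in neither direction between the control lineages. All 68 had a mutant mean at or above the control basal mean, which the choice of genes called higher here and not called basal-high itself favours. Their median level was 7.14 in mutant, 5.12 in control, 4.61 in control basal and 4.6 in control Sca1-positive cells.

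Of the 34 lower genes 23 (67.6%) were higher in control Sca1-positive than in control basal cells, against 7.35% of all genes, and 1, Heg1, was lower. Heg1 (-1.14, adjusted p = 0.0334) lost its call without control array 1 or 3 or mutant array 1, 2 or 3 (up to 0.149). In 22 of the 23 the control Sca1-positive mean also exceeded the control Sca1-negative mean. Their median level was 9.12 in control Sca1-positive, 7.29 in control Sca1-negative and 5.51 in mutant Sca1-negative cells. The choice of genes called lower here and higher in Sca1-positive than in basal cells itself favours this order. Prom1, Tspan1, Piezo2, Mdga2, Abcc3 and Fgb, the fibrinogen beta chain, belong to the 23. The other 10 lower genes were called in neither direction. Their median mutant minus control difference was -0.5, and Barx2 and Galnt15 were 2 of them.

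**Figure D5:**
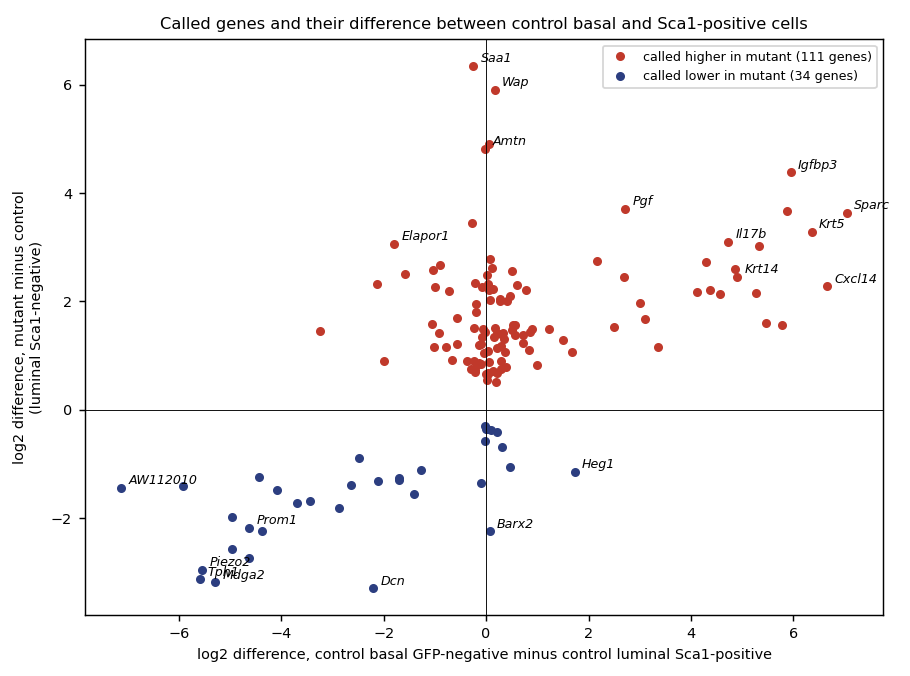
Each of the 145 called genes by its log2 difference between control basal GFP-negative and control luminal Sca1-positive cells (x axis) and its log2 difference between mutant and control luminal Sca1-negative cells (y axis). The 33 higher genes with a basal-high difference spread to the right, up to Sparc, Saa1 and Wap sit near 0, and 26 of the 34 lower genes lie to the left of 0.

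The mutant effect was then compared with that in the luminal Sca1-positive gate, where the mutant cells are likewise GFP-positive and the control cells GFP-negative. No array is shared, although cells of both gates were sorted from pooled glands and may come from the same mice. Both comparisons also take the spread of each gene from the same fit, so their calls are not independent. The overlaps may be larger for it. Of the 111 higher genes 10 (9.01%, and 12.5% of the 80 genes higher there) also rose in Sca1-positive cells, against 0.401% of all genes, and none fell there. The 10 were Amtn, Apod, Csn2, Il17b, Lgals1, Lgals7, Nr4a1, Pmp22, Wfdc12 and the clone 2210407C18Rik. In the Sca1-negative gate the call of Lgals7 was lost without control array 1 or 3 or mutant array 1 or 3 (up to 0.0931). Of the 34 lower genes 15 (44.1%, and 20.0% of the 75 genes lower there) also fell, against 0.376% of all genes, among them Prom1, Mdga2, Tspan1, Piezo2, Tph1, Dcn, Iigp1 and Fgb. Csn2 rose by 6.05 in Sca1-positive cells (adjusted p = 1.55e-05), Il17b by 3.59 (3.03e-08) and Amtn by 2.94 (1.86e-05). Saa1 (3.57, 0.0995) and Wap (4.07, 0.0769) did not pass there, with standard deviations of 2.85 and 2.68 among the 3 mutant Sca1-positive arrays. The differences between the effects of the gates were not called for Saa1 (2.78, 0.694), Wap (1.83, 0.834), Krt5 (2.12, 0.305), Igfbp3 (2.82, 0.511) or Pgf (2.97, 0.0845).

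A test of the difference itself called 32 genes (0.161%), 16 in each direction (0.0803% each), and 14 of the 32 were among the 145. Prkaa2 differed most firmly, with a rise of 2.05 in Sca1-negative and a difference of 0.13 in Sca1-positive cells (difference of effects 1.91, adjusted p = 0.000185). Cxcl14 (2.14, 0.00281), Fyb2, an adaptor protein (2.11, 0.00289), Wfdc3 (2.32, 0.00393) and Zbtb7b, a transcription factor of milk lipid secretion (1.72, 0.014), had the same pattern, with Sca1-positive differences of 0.14, 0.10, 0.45 and -0.14. With its probe sets averaged, the difference of effects of Wfdc3 was 1.07 and its call was lost. Apod had the opposite pattern, rising by 2.23 in Sca1-negative and by 5.62 in Sca1-positive cells (-3.39, 0.00281). Wfdc12 rose by 2.35 and 4.71 (-2.37, 0.0103). In the fit of the 4 compared groups, Apod (0.0119) and Prkaa2 (0.0125) kept the difference and the other 12 genes did not.

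Basal GFP-positive cells gave a second comparison of mutant and control that shares no array, although these cells too may come from the same mice. It takes the spread of each gene from the same fit, so its calls are not independent of those in the luminal gate. The overlaps may be larger for it. Of the 111 higher genes 33 (29.7%, and 3.49% of the 946 genes higher there) also rose in mutant basal GFP-positive cells, against 4.74% of all genes, and 5 fell, against 7.81% of all genes. Saa1 rose there by 4.85 (adjusted p = 0.00338), Saa2 by 4.45 (0.00418), Csn2 by 5.90 (1.12e-05), Nrg1 by 3.30 (6.99e-05), Pgf by 2.57 (0.00185) and Wap by 3.10 (0.0481). The 5 that fell there were Cxcl14, Myo5b, Nr4a1, Slpi and Zbtb7b. In the luminal gate the call of Myo5b was lost without mutant array 2 (0.0539), and that of Nek7 without control array 1 or 2 or mutant array 1 or 2 (up to 0.077). Of the 34 lower genes 1, Slc7a2, fell there too and 3, Dcn, Nek7 and Piezo2, rose. Amtn (0.29, 0.532) and Prkaa2 (-0.04, 0.878) did not pass in basal cells.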

How the data were processed

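RNA of sorted mouse mammary cells was hybridised to Affymetrix mouse Gene 1.0 ST arrays, with 3 arrays for each of 8 groups. The authors deposited 1 log2 value for each probe set and array, the scale being read here from the values (2.59 to 13.54, array medians 4.39 to 4.55). The software affy is named in the submitters' processing notes. Background correction, normalization and summarization are not given in the sources used here. Arrays carry no read depth, so the number of arrays limits the precision.

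The platform annotation names a single gene for 21640 of 34760 probe sets. For the 954 of 19937 genes read by more than 1 of these, the probe set brightest on average across the 24 arrays stood for the gene. The other 13120 probe sets were fitted apart. limma 3.58.1 in R 4.3.3 gave each group its own mean in 1 fit (16 residual degrees of freedom), and genes with a two-sided Benjamini-Hochberg adjusted p under 0.05, adjusted within each comparison, were called. Errors of differences are standard errors of that fit. Replicates are pools of mice, so p-values measure the spread between pools. An exact permutation test of 3 against 3 cannot go below p = 0.1 and was not used. Groups came from the sample labels. The code was tested on simulated data.

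The comparison, the 45 gene lists and the genes named were chosen with earlier results of these data known. Per-array values are given for fixed marker genes, for up to 15 called genes each way with the largest difference, and for up to 4 called members of each list with the smallest p, without predicted genes and clones. Other called genes are named as examples, and list members that were not called as the list's defining members. Alternatives were fits of the 6 arrays or the 12 luminal arrays, fits without each array or without control basal GFP-positive arrays, quantile normalization, median centring, dim genes left out, probe sets averaged, array weights, a trended robust prior and the replicate number as a block. Promoters are from the RefSeq table given (GRCm38.p6). Labels do not say whether the replicate number marks the sorting. Deviations of same-numbered mutant and control arrays correlated at 0.051, 0.088 and 0.038.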

Additional observations from a re-analysis of the deposited data

Results flagged for a closer look

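Among the 145 called genes the mutant effect differed between the Sca1-negative and Sca1-positive gates in 14 by the interaction test of the fit. In 10 higher genes the differences of effects were 1.65 in Arhgap26, 2.14 in Cxcl14, 2.11 in Fyb2, 1.75 in Grb10, 1.17 in Itgav, 1.91 in Prkaa2, 2.32 in Wfdc3, 1.72 in Zbtb7b, -3.39 in Apod and -2.37 in Wfdc12. In 4 lower genes they were -3.07 in Barx2, -1.96 in Cxcl17, -1.33 in Galnt15 and 1.73 in Nrxn3. Nrxn3 fell in both gates, by 0.89 and by 2.61, and in the Sca1-negative gate it lost its call without control array 2 (adjusted p = 0.0502). The difference was lost without 1 or more single arrays in Arhgap26 (adjusted p up to 0.0815), Barx2 (0.107), Cxcl17 (0.108), Grb10 (0.121) and Itgav (0.0711). With probe sets averaged, that of Wfdc3 was 1.07 and its call was lost. Among the 13120 probe sets with several symbols or none, which entered no gene comparison, 8 were called higher and 6 lower in mutant cells.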

How the results depend on the processing

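The fit of only the compared groups called 32 higher genes (22 of them among the 111) and 2 lower genes, and 5 genes for the difference between gates (3 shared). The 12 luminal arrays called 64 higher (46 shared), 10 lower (9 shared) and 5 for the difference (3 shared). Array weights called 55 lower genes and 52 for the difference. Leaving out 1 array gave 80 to 122 higher and 20 to 39 lower genes, and 23 to 60 for the difference. The lowest count of lower genes came without mutant Sca1-negative array 1 and the highest count for the difference without mutant Sca1-positive array 1. Quantile normalization called 88 higher and 50 lower genes, against 111 and 34. The replicate number as a block gave 121 higher, 39 lower and 35 for the difference. Under that block the calls of the mutant effect in Car12 (adjusted p = 0.0515), Id2 (0.0712), Itgb3 (0.0627) and Slc7a2 (0.0575) were lost, and no other named gene lost that call. The difference between gates was lost under the block in Cxcl17, under quantile normalization in Grb10 and Itgav and under median centring in Barx2. Without the control basal GFP-positive arrays it was lost in Arhgap26, Barx2, Cxcl17 and Grb10. For the mutant effect, quantile normalization ended the calls of Aldoa, Car12, Cd68, Id2, Itgav, Itgb3, Myo5b and Vim, and median centring those of Id2 and Slc7a2. Averaging probe sets ended that of Heg1, and leaving out the control basal GFP-positive arrays those of Id2 and Itih2. In the check of the numbers each mutant array correlated best with the control array of its own number, all below 0.1. Called under all 16 settings of the comparison were 12 genes: Amtn, Apod, Cdhr1, Csn2, Cxcl14, Ifi30, Il17b, Pgf, Prkaa2, Wfdc12 and Wfdc3, all higher, and Tspan1, lower. No named gene changed direction. The fits of fewer groups have fewer residual degrees of freedom, and the cause of the other changes was not tested.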

Other observations

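Lists without calls held genes whose arrays lay apart. Among 19 ERK feedback genes none was called, but in 9 the 3 mutant arrays lay wholly above the control arrays, against 7.64% of all genes, and the median difference was 0.33. Spry2, an inhibitor of growth factor signalling, stood at 10.38, 10.27 and 10.2 in mutant arrays against 7.87, 9.14 and 8.98 (1.62, adjusted p = 0.305), and Dusp5, a phosphatase of ERK, at 9.37, 9.9 and 9.49 against 8.98, 8.23 and 8.45 (1.04, 0.229). Dusp6, another phosphatase of ERK, overlapped between the groups (-0.01, adjusted p = 0.998).

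Among 26 genes of endoplasmic reticulum folding and secretion none was called and 20 had positive differences (median 0.26, against -0.04 for all genes). In 9 the mutant arrays lay wholly above control, against 7.64% of all genes. Ddit3, the stress factor CHOP, stood at 6.88, 6.87 and 7.33 against 5.76, 5.6 and 6.02 (1.23, adjusted p = 0.242), and the disulfide isomerase Pdia6 at 8.9, 9.37 and 9.35 against 8.33, 8.49 and 8.71 (0.70, 0.171). Of 15 desmosome genes none was called and 6 had mutant arrays wholly above control (median 0.32), against 7.64% of all genes. Pkp1, plakophilin-1, stood at 6.3, 7.19 and 7.08 against 5.7, 5.83 and 5.6 (1.15, 0.207). Ribosomal protein genes lay between differences of -0.18 and 0.0 (14 genes, 0 called).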
